A study of Ophthalmotilapia nasuta and Ophthalmotilapia ventralis with 60 samples.

Results

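The 6 neuropeptide precursor genes vip, adcyap1, tac1, penk, cck and nmb were followed through 6 parts of the brain in females of Ophthalmotilapia nasuta and Ophthalmotilapia ventralis, cichlid fishes of Lake Tanganyika. They were picked by gene name from 36499 gene rows. All 6 passed the filter on low counts, which 11680 genes passed. For vip, tac1 and nmb the libraries above the filter's limit lay mainly in parts where these genes were then called higher. The libraries came from 5 wild-caught mature females of each species, and each fish gave its telencephalon, olfactory bulbs, diencephalon, optic tectum, cerebellum and brain stem. The females of a species shared 1 aquarium and 1 collection site, and O. nasuta was dissected first, so that species, aquarium, site and order of dissection cannot be told apart. All 10 fish were killed on 1 day. The diencephalon samples held the preoptic area, the hypothalamus and the pituitary, and the very small olfactory bulbs were parted from the telencephalon on a glass slide.

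A neuropeptide is made as a larger precursor, cut by prohormone convertases in the secretory pathway, stored in dense-core vesicles and released beside a fast transmitter such as glutamate or GABA. It then acts on G protein-coupled receptors, often at a distance from the release site. Vasoactive intestinal peptide (vip) and pituitary adenylate cyclase-activating peptide (adcyap1) belong to the secretin family and share receptors. The precursor tac1 gives substance P and neurokinin A, penk gives the enkephalins, cck gives cholecystokinin, and nmb gives neuromedin B, a relative of the amphibian peptide bombesin. In mammals cck is widely expressed in the cerebral cortex, penk in the striatum and tac1 in striatum, hypothalamus and brain stem, and many neurons of the suprachiasmatic clock make vip.

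Reads were 3′ tags, counted per gene and given here as CPM, the count divided by the library's total after TMM scaling and brought to a common size. Levels are compared within a gene only, because tag capture differs between genes. Total counts ran between 137128 and 1531632 in the 59 libraries used, with a median of 519523. The bulbs of O. nasuta fish 5 gave 25798 counts and were left out, which left 4 olfactory bulb libraries in O. nasuta and 5 libraries in every other group. No pair of libraries held identical values. The summed markers of the brain stem, cerebellum, diencephalon, olfactory bulbs and optic tectum had their highest median in the part they name in both species, whereas the telencephalon markers had a higher median in the olfactory bulbs (708 and 640 CPM in O. nasuta and O. ventralis) than in the telencephalon (440 and 457 CPM). The bulbs of O. ventralis fish 1, kept in the main tests, had an olfactory bulb marker sum of 207 CPM. That was below the lowest sum of these markers in every other O. ventralis part, the least of which was 309 CPM in the optic tectum. Within these lists, cbln1 was lower in the cerebellum (log2 fold change -4.08 in O. nasuta, -4.26 in O. ventralis) and otp, a regulator of neuroendocrine neurons, was called higher in the brain stem of both. In tissue pieces such as these, fewer cells of a type and less RNA per cell cannot be told apart.

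Within a species, each part was set against the mean of the other 5, with the fish as a block (edgeR's quasi-likelihood test, Holm-adjusted within a gene after a joint test over all 12 contrasts). The joint test passed for all 6 genes, and for 76.5% of all genes tested. Of the 72 comparisons of a gene with a part and a species, 33 passed, 22 of them higher in the part and 11 lower, against 14.6% higher and 10.6% lower over all genes tested. With the cerebellum left out of the average and of the comparisons, 32 of 60 passed, 17 higher and 15 lower, where between 9.14% and 13.4% of all genes were called higher in a part and between 6.85% and 13.1% lower. Each part took 12 of the 72 comparisons. The diencephalon held 8 of the 22 higher calls and the olfactory bulbs 5, whereas the cerebellum held 7 of the 11 lower calls and the optic tectum the other 4. This spread over parts depended on the cerebellum in the average. With it left out, higher diencephalic calls were lost for cck in both species and vip in O. ventralis, and diencephalic adcyap1 was called lower in both. The optic tectum gained lower calls for cck in both species, vip in O. ventralis and nmb in O. nasuta. Of all genes in O. nasuta and O. ventralis, 11.6% and 12.4% were higher in the diencephalon and 13.5% and 15.2% in the bulbs. The cerebellum had 19.9% and 21.8% of all genes lower, and the optic tectum 8.93% and 7.39%. Between single parts, 106 of 180 pairs passed, against 31.1% over all genes. The genes fell into different patterns: cck and adcyap1 had their highest mean in the telencephalon, nmb was found almost entirely in the diencephalon, vip and tac1 were high in diencephalon and brain stem, vip had its highest O. ventralis mean (20.6 CPM) in the olfactory bulbs, and penk alone had its highest mean in the cerebellum.

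**Figure D1:**
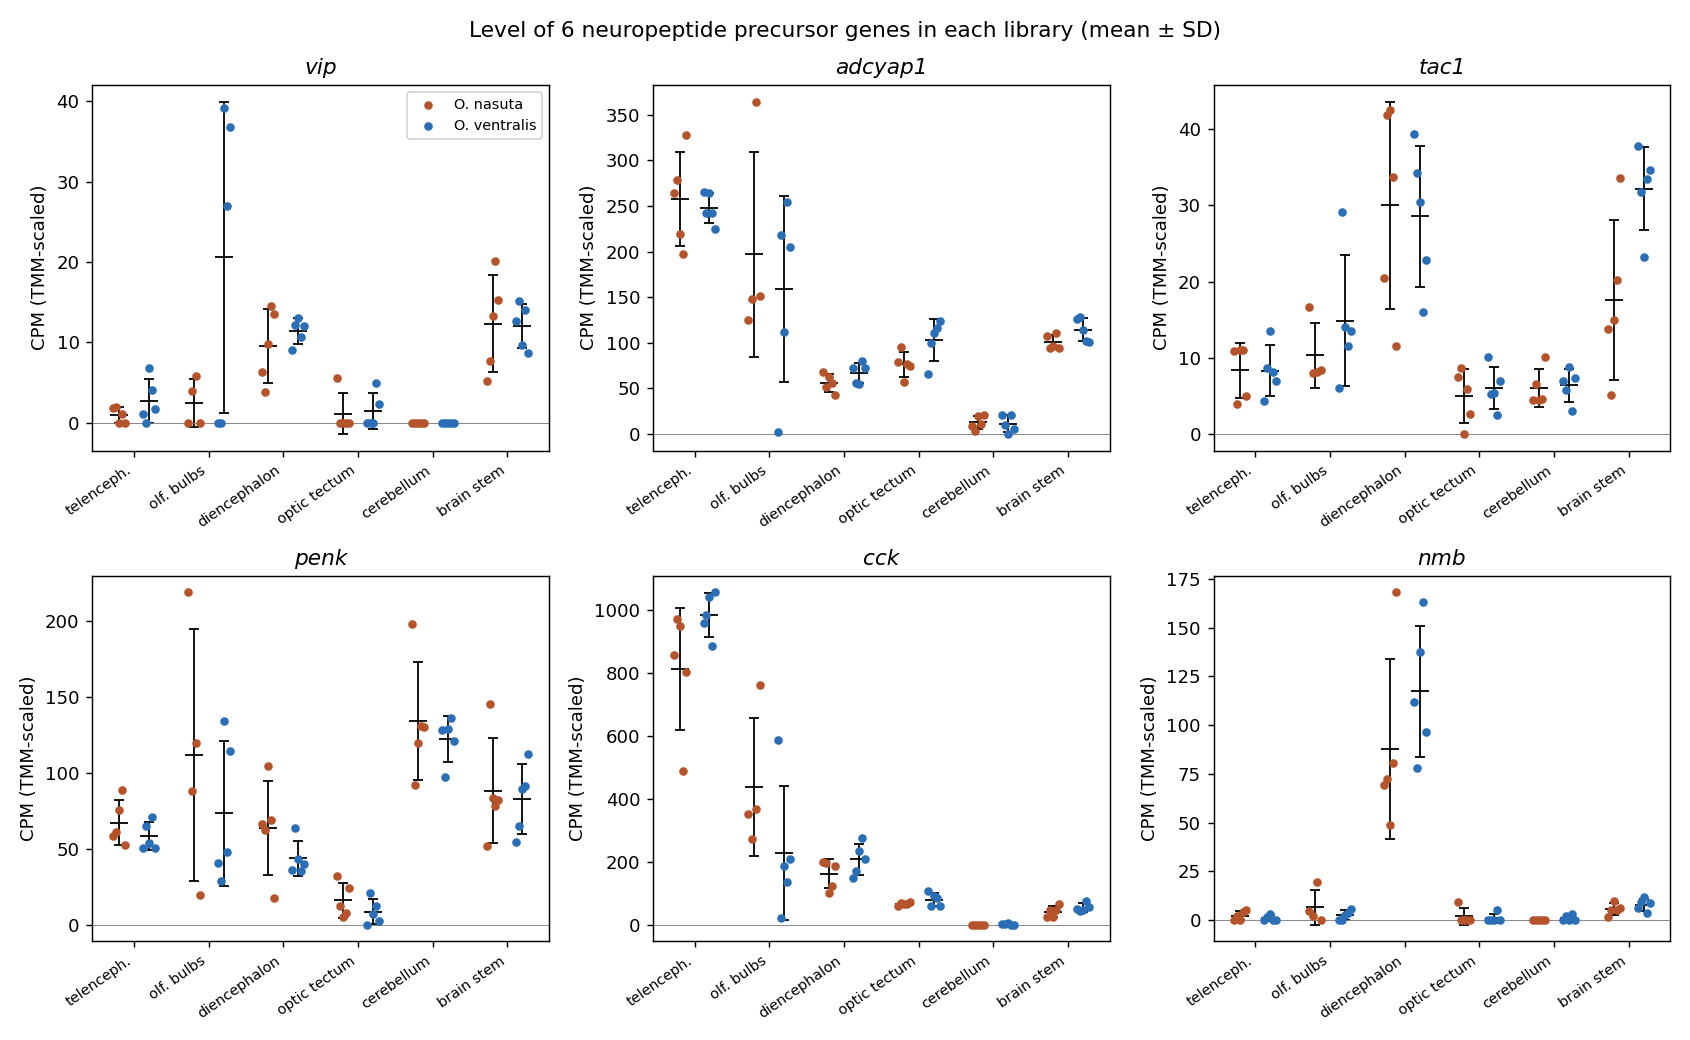
Level of each peptide gene (CPM, vertical axis) in the 6 brain parts, with one point per fish and bars for mean and SD, O. nasuta (orange) left of O. ventralis (blue) within each part; an SD bar may reach below 0. Telencephalon cck averaged 813 CPM (O. nasuta) and 985 CPM (O. ventralis), and diencephalic nmb 87.8 CPM (O. nasuta) and 117 CPM (O. ventralis), against at most 7.84 CPM elsewhere.

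Cholecystokinin, which in mammals marks a class of cortical interneurons and many pyramidal cells, had its highest mean in the telencephalon. Telencephalon cck was 856, 970, 950, 487 and 803 CPM in O. nasuta fish 1 to 5 and 958, 983, 1042, 884 and 1056 CPM in O. ventralis fish 1 to 5. In the cerebellum no read was counted in any O. nasuta fish, and O. ventralis had 2.09, 1.91, 5.88, 0 and 0 CPM, 6 reads in all. Telencephalon and cerebellum therefore did not overlap in either species, and O. nasuta fish 4 had the lowest telencephalic value of the 10 fish. The level in the telencephalon was 53.5% of the sum of the 6 part means in O. nasuta and 63.3% in O. ventralis. It was the highest of the 6 parts in 4 of 5 O. nasuta and 5 of 5 O. ventralis, and the cerebellum was the lowest in every fish.

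Against the average of the other parts, telencephalic cck was higher by 4.61 ± 0.28 on the log2 scale (SE, adjusted p = 3.14e-17) in O. nasuta and 4.26 ± 0.23 (adjusted p = 1.68e-18) in O. ventralis, where 15.8% and 16% of all genes were called higher. That average takes in a cerebellum with few or no cck reads. Leaving the cerebellum out of it gave 2.82 (O. nasuta) and 3.07 (O. ventralis), both still called. The O. ventralis cerebellum was lower (log2 fold change -6.56 ± 0.59, adjusted p = 5.63e-12), in a part where 19.9% and 21.8% of all genes were called lower in O. nasuta and O. ventralis. In O. nasuta, cerebellar cck was at least 571-fold lower than in the telencephalon, with the floor set at 3 counts over the group.

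Below the telencephalon, cck averaged 438 ± 219 CPM in the olfactory bulbs of O. nasuta (SD, n = 4) and 228 ± 213 CPM in those of O. ventralis (n = 5). In O. nasuta the diencephalon had 162 ± 45.7 CPM, the optic tectum 65.8 ± 5.24 CPM and the brain stem 40.3 ± 17.6 CPM (n = 5 each). In O. ventralis these parts had 207 ± 50.1, 79.5 ± 20.6 and 54.0 ± 13.01 CPM (n = 5 each). In O. nasuta each step down from telencephalon to olfactory bulbs, diencephalon and optic tectum passed the pairwise test (adjusted p = 0.0499, 0.00195 and 0.00601, with 18.8%, 15.1% and 27.2% of all genes called), and that from optic tectum to brain stem did not. The first of these steps was lost when O. nasuta fish 1, 2, 3 or 5 or O. ventralis fish 3, 4 or 5 was left out (smallest difference -0.63 on the log2 scale for bulbs over telencephalon, adjusted p = 0.302, without O. nasuta fish 2), and the second without O. nasuta fish 4 (-0.98 for diencephalon over bulbs, adjusted p = 0.0551). In O. ventralis the steps from telencephalon to olfactory bulbs and from diencephalon to optic tectum passed (adjusted p = 3.12e-06 and 0.00282, with 27.6% and 24.7% of all genes called), while olfactory bulbs and diencephalon did not differ beyond their spread. The diencephalon was called higher than the average of the other parts in O. nasuta (1.82, adjusted p = 0.000661) and O. ventralis (1.58, adjusted p = 3.65e-05), as were 11.6% and 12.4% of all genes, but with the cerebellum left out of that average the values were -0.09 (O. nasuta, adjusted p = 0.969) and 0.27 (O. ventralis, adjusted p = 0.781). The olfactory bulbs were called higher by 3.55 in O. nasuta (adjusted p = 3.23e-11) and 1.66 in O. ventralis (adjusted p = 2.28e-05), where 13.5% and 15.2% of all genes were called higher. With the cerebellum left out, the O. nasuta bulbs were still higher (1.71, adjusted p = 1.23e-06) and the O. ventralis call did not hold (0.37, adjusted p = 0.725). The brain stem was then called lower in O. nasuta (-2.72, adjusted p = 4.59e-08) and O. ventralis (-2.19, adjusted p = 6.35e-07). So was the optic tectum (O. nasuta -1.72, adjusted p = 2.27e-05, O. ventralis -1.52, adjusted p = 0.000148).

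The adcyap1 precursor, whose peptide acts through its own receptor and the receptors of vip, had its highest mean in the same part as cck. Telencephalon levels were 264, 279, 219.8, 197 and 328 CPM in O. nasuta fish 1 to 5 and 265, 243, 264, 243 and 225 CPM in O. ventralis. Cerebellum levels were 9.02, 3.30, 19.99, 11.3 and 20.2 CPM in O. nasuta and 20.9, 9.56, 0, 20.8 and 5.52 CPM in O. ventralis. Every telencephalic value was above every cerebellar one, and the telencephalon was the highest part in 4 of 5 fish of each species. The telencephalon was higher than the average of the other parts by 1.96 ± 0.25 in O. nasuta (adjusted p = 2.15e-08) and 1.83 ± 0.25 in O. ventralis (adjusted p = 1.05e-07). The cerebellum was lower in O. nasuta (-3.03 ± 0.46, adjusted p = 7.94e-07) and in O. ventralis (-3.13 ± 0.42, adjusted p = 6.46e-08). The olfactory bulbs were also called higher in O. nasuta (1.498, adjusted p = 8.66e-05) and O. ventralis (0.92, adjusted p = 0.0321). The O. nasuta call was lost without fish 3 (1.02, adjusted p = 0.0621), and the O. ventralis call without O. nasuta fish 1, 4 or 5 or O. ventralis fish 2, 3, 4 or 5 (0.65, adjusted p = 0.582, without O. ventralis fish 4). The O. ventralis call also did not hold when the cerebellum was left out of the average (0.30, adjusted p = 1).

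Between these extremes adcyap1 lay in a narrow band. In O. nasuta the brain stem had 101 ± 7.70 CPM, the optic tectum 76.4 ± 13.8 CPM and the diencephalon 56.0 ± 9.70 CPM (SD, n = 5 each). In O. ventralis these parts had 114 ± 12.8, 103.4 ± 22.8 and 67.1 ± 11.1 CPM. None of these 3 parts was called against the average of the other parts, and in the order of levels only the step from diencephalon to cerebellum passed the pairwise test in both species, as it did for 39.3% and 44.5% of all genes. With the cerebellum left out of the average, the diencephalon was lower in O. nasuta (-1.31, adjusted p = 0.00263) and in O. ventralis (-1.13, adjusted p = 0.00964).

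**Figure D2:**
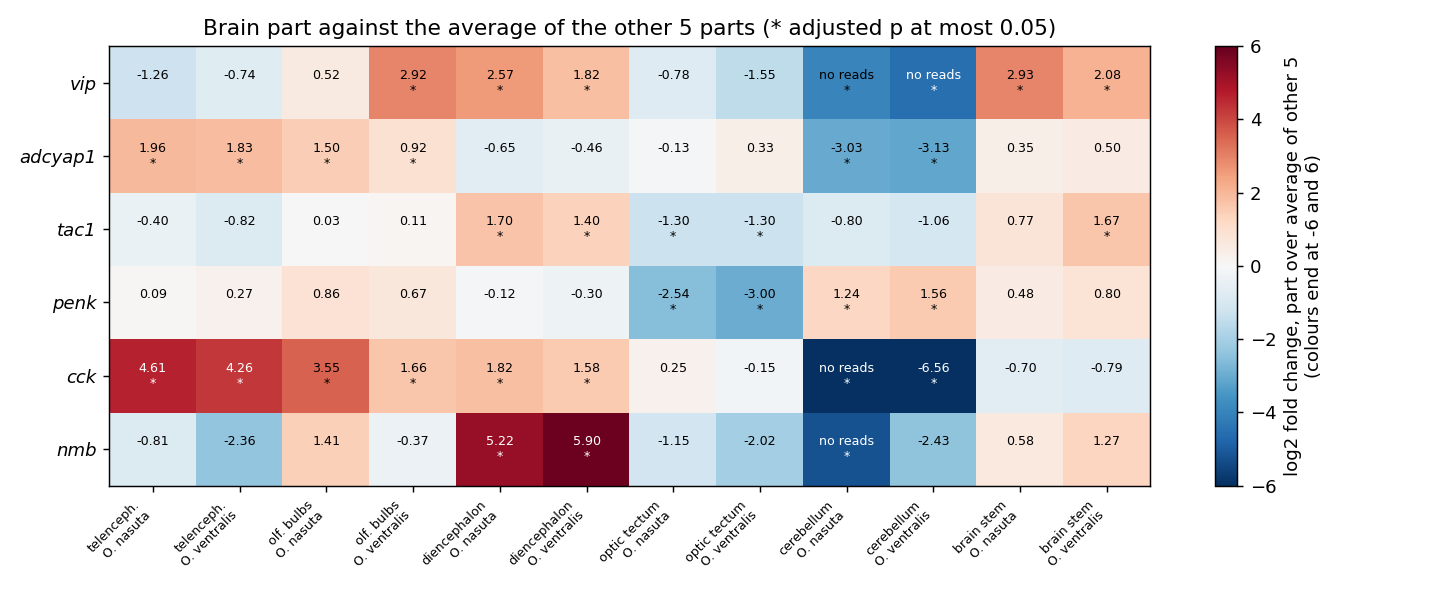
Log2 fold change of each gene in each part against the average of the other 5 parts, O. nasuta left of O. ventralis, coloured by the fold change (red higher, blue lower), with an asterisk at an adjusted p of at most 0.05 and "no reads" where a cerebellum held none. The averages for vip in both species and for cck and nmb in O. nasuta take in a cerebellum without reads, so that the sizes there depend on the count added before taking logs.

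Neuromedin B, which in mammals takes part in thermoregulation and in the relay of itch and sighing, was concentrated in the diencephalon. Diencephalic nmb was 69.2, 72.2, 49.0, 80.4 and 168 CPM in O. nasuta fish 1 to 5 and 112, 78.2, 137, 163 and 96.5 CPM in O. ventralis. The other 5 parts averaged between 0 and 6.68 CPM in O. nasuta and between 0.976 and 7.84 CPM in O. ventralis. The diencephalon was the highest part in 5 of 5 fish of each species and held 84.2% of the summed part means in O. nasuta and 89.8% in O. ventralis. No value elsewhere reached the lowest diencephalic value, and the nearest was 19.8 CPM in the olfactory bulbs of O. nasuta fish 3. The diencephalon was higher by 5.22 ± 0.34 in O. nasuta (adjusted p = 6.23e-20) and 5.90 ± 0.32 in O. ventralis (adjusted p = 3.47e-23). Without the cerebellum in the average the values were 4.34 (O. nasuta) and 5.64 (O. ventralis). Only 11 libraries had nmb above the 15 CPM of the filter on low counts. Every diencephalon library was among them, so nmb entered the tests through the part called higher. Cerebellar nmb had no read in O. nasuta, at least 61.7-fold lower than in the diencephalon, and 2 reads over the 5 O. ventralis libraries.

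Because the diencephalon samples included the pituitary, the pituitary marker genes were summed beside nmb. The 5 measured markers summed to 113, 163, 189.6, 140 and 13.5 CPM in O. nasuta fish 1 to 5 and to 127, 166, 61.0, 28.4 and 44.2 CPM in O. ventralis. In each species the fish with the highest nmb (O. nasuta fish 5 and O. ventralis fish 4) had the lowest pituitary sum. The homeobox regulator gsx1, named here as the annotated gene closest to nmb in pattern, averaged 71.1 ± 16.6 CPM in the O. nasuta diencephalon and 79.4 ± 19.3 CPM in that of O. ventralis.

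The vip gene was sparsely counted, with 182 reads over 35 libraries, and its values carry large counting error. Brain stem vip was 5.18, 7.67, 13.3, 20.2 and 15.3 CPM in O. nasuta fish 1 to 5 and 12.6, 15.1, 9.70, 14.1 and 8.68 CPM in O. ventralis. Diencephalic vip was 6.29, 3.80, 9.81, 14.5 and 13.5 CPM in O. nasuta and 9.07, 12.2, 13.1, 10.6 and 12.1 CPM in O. ventralis. Every brain stem and diencephalon library held vip reads, and the ranges of these parts overlapped. No vip read was counted in the 10 cerebellum libraries. The group floors put the cerebellum at least 8.66-fold lower than the brain stem mean in O. nasuta and at least 12.7-fold lower in O. ventralis. These bounds leave out the counting error of the brain stem means, which rest on 27 reads in O. nasuta and 32 reads in O. ventralis. Against the average, the cerebellum was called lower in O. nasuta (adjusted p = 0.0458) and O. ventralis (adjusted p = 0.00116). Thinning to the lowest total lost both calls. The O. nasuta call was also lost with DESeq2's test (adjusted p = 0.0539), the current edgeR fit (adjusted p = 0.0573) and no replicate block (adjusted p = 0.0558). It did not hold without any of the O. nasuta fish, or without O. ventralis fish 4 or 5. Optic tectum and telencephalon had 3 reads each in O. nasuta and 3 and 6 reads in O. ventralis.

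Brain stem vip was called higher than the average of the other parts in O. nasuta (2.93 ± 0.57, adjusted p = 3.56e-05) and O. ventralis (2.08 ± 0.50, adjusted p = 0.00116). Diencephalic vip was called higher as well (O. nasuta 2.57 ± 0.58, adjusted p = 0.000455, O. ventralis 1.82 ± 0.51, adjusted p = 0.00559). Brain stem calls covered 13.9% and 12.7% of all genes. With the cerebellum left out of the average, the O. nasuta calls held (2.23, adjusted p = 0.00118, and 1.85, adjusted p = 0.013) and the O. ventralis calls did not (1.22, adjusted p = 0.0959, and 0.96, adjusted p = 0.21). After thinning all libraries to the lowest total, the diencephalic calls were lost (O. nasuta 1.66, adjusted p = 0.364, O. ventralis 1.72, adjusted p = 0.138). Those of the brain stem held. The brain stem samples with these vip reads also carried other tissue markers, whose part in the levels was not tested. Cerebellum markers summed to between 1378 and 3136 CPM in the brain stem of O. nasuta and between 1813 and 3509 CPM in that of O. ventralis, against at least 8694 CPM in the O. nasuta and 9823 CPM in the O. ventralis cerebellum. That sum includes cbln1, which was lower in the cerebellum itself. Of the 7 tested markers, 6 in O. nasuta and 7 in O. ventralis were called higher in the brain stem than the average of the other parts. The sum is therefore not a measure of cerebellar tissue alone. The nonapeptide precursor oxt averaged 363 ± 250 CPM in the brain stem of O. nasuta, against 40.0 CPM in the diencephalon, and 314 ± 101 CPM in that of O. ventralis, against 1.72 CPM. In O. nasuta otp averaged 19.0 CPM in the brain stem, against 5.58 CPM in the diencephalon, and in O. ventralis 34.8 CPM, against 3.96 CPM.

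The tac1 precursor followed vip in outline. Diencephalic tac1 was 20.4, 41.8, 42.5, 33.8 and 11.6 CPM in O. nasuta fish 1 to 5 and 39.3, 34.2, 30.5, 16.0 and 22.8 CPM in O. ventralis. Brain stem tac1 was 13.8, 5.11, 14.99, 20.2 and 33.6 CPM in O. nasuta and 37.8, 31.7, 23.3, 33.5 and 34.7 CPM in O. ventralis. O. nasuta fish 5 had the lowest diencephalic and the highest brain stem value of its species, and in the other 4 O. nasuta the diencephalon was above the brain stem. The diencephalon was higher than the average of the other parts in O. nasuta (1.70 ± 0.28, adjusted p = 5.81e-07) and O. ventralis (1.40 ± 0.28, adjusted p = 6.2e-05). The brain stem was called higher in O. ventralis (1.67 ± 0.27, adjusted p = 5.04e-07) and not in O. nasuta (0.77 ± 0.32, adjusted p = 0.163), where it passed without fish 2 (0.99, adjusted p = 0.0427). The difference between the species in this contrast was -0.90 ± 0.42 for O. nasuta minus O. ventralis and did not pass (adjusted p = 1). After thinning all libraries to the lowest total, the O. ventralis calls were lost in the brain stem (1.10, adjusted p = 0.531) and the diencephalon (1.41, adjusted p = 0.0923). The O. nasuta diencephalon call held.

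Low levels of tac1 were found in the optic tectum, with 7.50, 8.69, 0, 5.88 and 2.66 CPM in O. nasuta and 10.1, 5.24, 5.37, 2.47 and 6.90 CPM in O. ventralis. All of these lay below every diencephalic value of the same species. The optic tectum was called lower in O. nasuta (-1.30 ± 0.41, adjusted p = 0.0271) and O. ventralis (-1.30 ± 0.44, adjusted p = 0.0444), against 8.93% and 7.39% of all genes. The O. nasuta call was lost without O. nasuta fish 3, 4 or 5 (-0.94, adjusted p = 0.252, without fish 3), and the O. ventralis call without O. ventralis fish 2, 3, 4 or 5 or O. nasuta fish 4 (-1.20, adjusted p = 0.162, without O. ventralis fish 4). Neither call was made by DESeq2's test (O. nasuta adjusted p = 0.0578, O. ventralis adjusted p = 0.0702) or after thinning all libraries to the lowest total. Cerebellum, telencephalon and olfactory bulbs averaged between 6.04 and 14.9 CPM and were not called. The O. ventralis cerebellum was just outside the threshold (-1.06, adjusted p = 0.0557) and was called lower under several alternatives (adjusted p = 0.0394 with DESeq2 size factors, 0.0397 with the current edgeR fit and 0.0475 without the replicate block), and the O. ventralis telencephalon was called lower with the cerebellum left out of the average (-1.07, adjusted p = 0.0484).

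Proenkephalin was the only one of the 6 with its highest mean in the cerebellum. Cerebellar penk was 198, 92.4, 119.9, 131 and 130.1 CPM in O. nasuta fish 1 to 5 and 128, 97.5, 129, 136 and 121 CPM in O. ventralis. The optic tectum had 31.9, 12.2, 4.73, 7.85 and 23.9 CPM in O. nasuta and 0, 21.0, 7.16, 12.4 and 2.30 CPM in O. ventralis. Cerebellar and tectal values did not overlap. The cerebellum was above the mean of the fish's other parts in 5 of 5 fish of each species, and was the highest part in 2 of 5 O. nasuta and 4 of 5 O. ventralis. It was higher than the average of the other parts by 1.24 ± 0.28 in O. nasuta (adjusted p = 0.000914) and 1.56 ± 0.28 in O. ventralis (adjusted p = 2.6e-05), with 17.3% and 19.2% of all genes called higher there. That average takes in an optic tectum with a mean of 16.1 CPM (O. nasuta) and 8.56 CPM (O. ventralis). An average without the tectum was not tested. The cerebellum did not differ in the pairwise test from the next part. This was the olfactory bulbs in O. nasuta (adjusted p = 0.543) and the brain stem in O. ventralis (adjusted p = 0.148). The optic tectum was lower in O. nasuta (-2.54 ± 0.40, adjusted p = 3.05e-06) and in O. ventralis (-3.00 ± 0.51, adjusted p = 9.16e-06).

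In O. nasuta, penk averaged 88.3 ± 34.6 CPM in the brain stem, 67.1 ± 14.8 CPM in the telencephalon and 64.0 ± 31.0 CPM in the diencephalon (SD, n = 5 each). In O. ventralis it averaged 82.6 ± 23.1, 58.4 ± 9.40 and 43.8 ± 11.5 CPM in these parts. These parts and the olfactory bulbs were not called in either species, and no step between neighbours in the order of penk levels passed the pairwise test apart from that from diencephalon to optic tectum. With the cerebellum left out of the average, the olfactory bulbs were called higher in O. nasuta (1.15, adjusted p = 0.00482) and O. ventralis (1.03, adjusted p = 0.0388), as was the O. ventralis brain stem (1.16, adjusted p = 0.00807).

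Levels in the olfactory bulbs varied widely between fish of a species. The paper reports too little RNA in some olfactory bulb samples. It proposes the small size and low RNA yield of the bulbs as a possible reason for their larger variation. Bulb adcyap1 was 125, 148, 365 and 151 CPM in O. nasuta fish 1 to 4 and 2.03, 218, 112, 254 and 206 CPM in O. ventralis fish 1 to 5. Bulb cck was 353, 272, 366 and 761 CPM in O. nasuta and 586, 21.8, 188, 135 and 209 CPM in O. ventralis, and bulb penk was 219, 88.0, 120.0 and 19.6 CPM in O. nasuta and 40.6, 29.1, 134, 48.2 and 114 CPM in O. ventralis. The species overlapped in all 3 genes. The highest cck in each species was in the libraries of O. nasuta fish 4 and O. ventralis fish 1, and both of these held no read of gnrh3, a gonadotropin-releasing hormone gene found at 181 to 483 CPM in the other O. nasuta bulbs and at 312 to 1084 CPM in the other O. ventralis bulbs. Their zic1 levels were 13.99 and 14.2 CPM, against 163 to 451 CPM in the other 7 bulbs. O. ventralis fish 2 had the fewest counts of the libraries used.

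**Figure D3:**
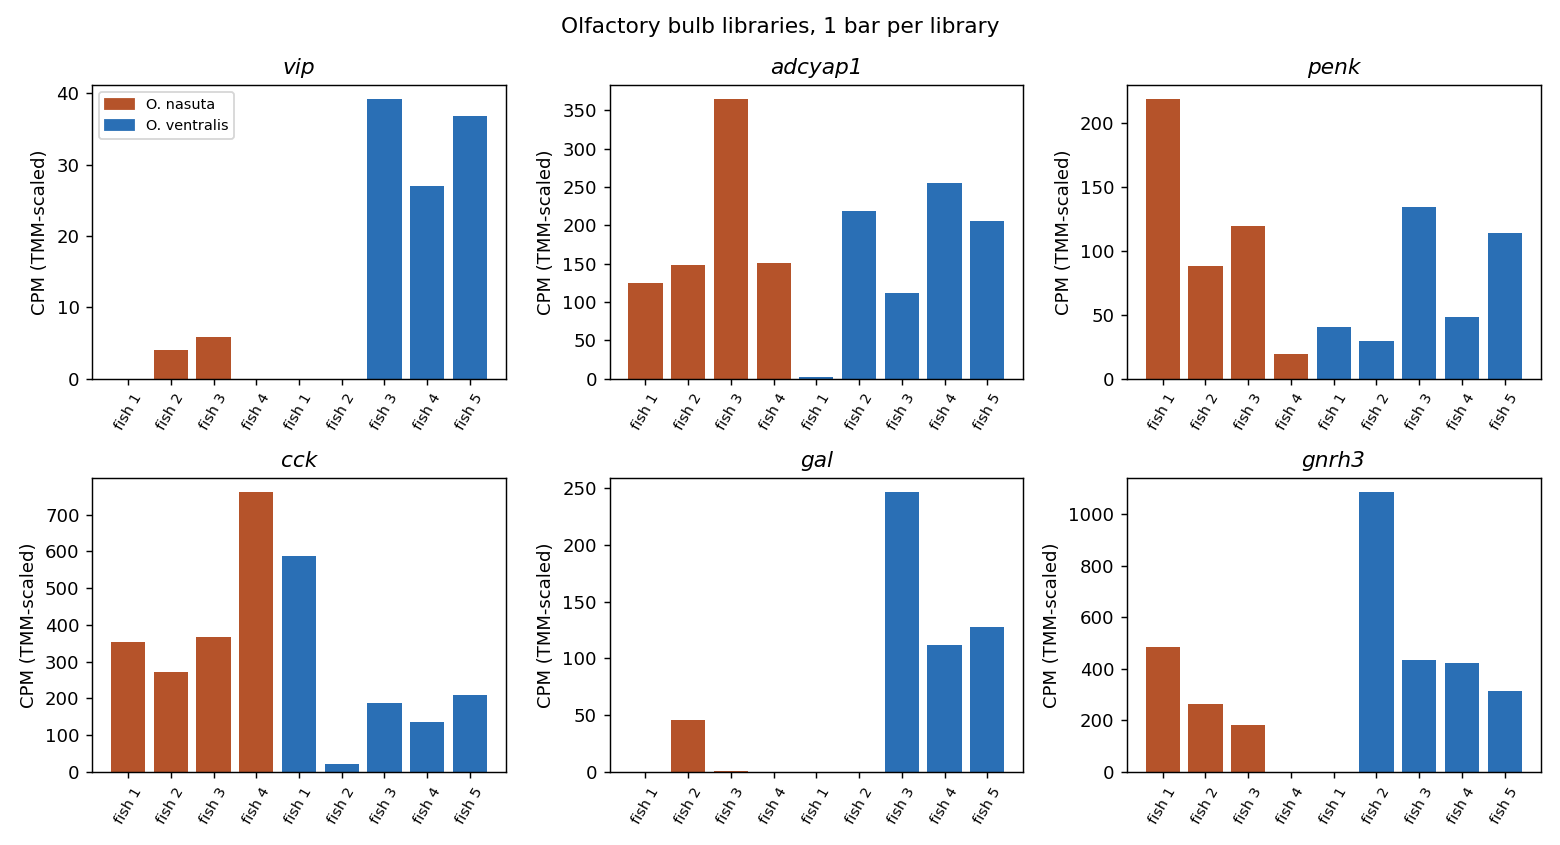
Levels of vip, adcyap1, penk, cck, gal and gnrh3 in each olfactory bulb library (CPM, 1 bar per library), O. nasuta fish 1 to 4 (orange) left of O. ventralis fish 1 to 5 (blue). O. nasuta fish 4 and O. ventralis fish 1 had no gnrh3 reads and the highest cck of their species, 761 and 586 CPM.

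With those 2 libraries left out, a choice made after seeing the data, cck in the bulbs was still higher than the average of the other parts (3.08 in O. nasuta, and 1.01 in O. ventralis with adjusted p = 0.000628). The averages in these fits took in the cerebellum. With the cerebellum left out and all libraries kept, bulb cck in O. ventralis was not called (0.37, adjusted p = 0.725). In O. nasuta, penk in the bulbs passed without the 2 libraries (1.18, adjusted p = 0.00128, against 0.86, adjusted p = 0.0586, with all libraries), and nmb as well (1.71, adjusted p = 0.0385). Of the 23 nmb reads in the O. nasuta bulbs, 17 came from fish 3. With the cerebellum, which held no nmb read in O. nasuta, left out and all libraries kept, bulb nmb was not called (0.38). The O. ventralis call for adcyap1 became larger (1.34, adjusted p = 1.26e-07). The part that neighbouring tissue played in these levels was not tested.

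Between the species, levels within a part differed in 1 of 36 comparisons, against 1.94% over all genes and parts, and 3 had an unadjusted p under 0.05. The 1 call was vip in the olfactory bulbs, which had 0, 3.999, 5.82 and 0 CPM in O. nasuta fish 1 to 4 and 0, 0, 39.2, 27.0 and 36.8 CPM in O. ventralis fish 1 to 5. O. ventralis fish 3, 4 and 5 were above every O. nasuta fish, and the species overlapped at 0. The log2 difference of O. nasuta minus O. ventralis was -3.03 ± 0.67 (SE, 95% interval -4.37 to -1.69, adjusted p = 0.00468), in a part where 2.73% of all genes were called. It rests on 7 reads in O. nasuta and 47 reads in O. ventralis. Only 5 libraries had vip above the 15 CPM of the filter on low counts. The bulbs of O. ventralis fish 3, 4 and 5 were among them, so vip entered the tests through the group called higher. Without a filter the difference was -2.97 (adjusted p = 0.000238). With each fish left out in turn it lay between -4.10 and -2.44 and passed each time, and after thinning all libraries to the lowest total it was -3.15 (adjusted p = 0.145).

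The 3 O. ventralis bulbs with vip reads were also those with reads of gal, the precursor of galanin, a peptide of hypothalamic and preoptic neurons (0, 0, 246, 112 and 128 CPM in O. ventralis fish 1 to 5, and 0, 46.0, 1.16 and 0 CPM in O. nasuta). Oxt was 2.03, 0, 824, 15.4 and 60.1 CPM in those O. ventralis fish and at most 0.983 CPM in the O. nasuta bulbs. The regulator otp had 4.06, 0, 11.2, 3.86 and 13.6 CPM in O. ventralis and at most 1.16 CPM in O. nasuta. The 5 diencephalon markers summed to 59.96, 57.99, 51.3 and 44.8 CPM in the bulbs of O. nasuta fish 1 to 4 and to 34.5, 94.6, 72.8, 106 and 95.004 CPM in those of O. ventralis fish 1 to 5, against at least 1262 CPM in the O. nasuta and 1470 CPM in the O. ventralis diencephalon. The part of such tissue in the vip difference was not tested. Within O. ventralis, bulb vip was higher than the average of the other parts by 2.92 ± 0.48 (adjusted p = 9.94e-07), and by 2.09 (adjusted p = 0.000285) without the cerebellum in the average. Without the 2 libraries lacking gnrh3 the vip difference was -3.18 (adjusted p = 0.00109), and cck in the bulbs was also called, higher in O. nasuta by 1.12 (adjusted p = 0.0102, against 0.81, adjusted p = 0.161, with all libraries). Leaving out O. ventralis fish 1 alone was enough for that call (1.49, adjusted p = 0.00236).

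**Figure D4:**
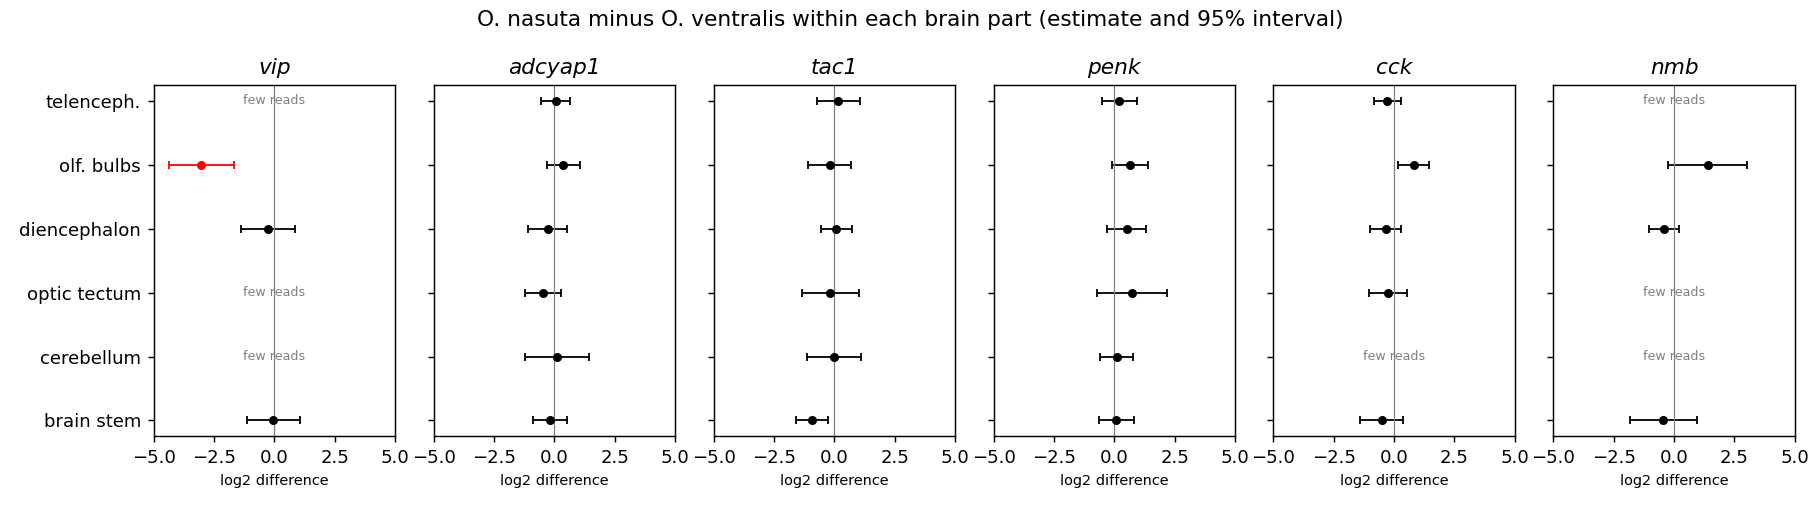
Log2 difference of O. nasuta minus O. ventralis for each gene and part, on the horizontal axis with its 95% interval, 1 panel per gene and 1 line per part. Of the 36 comparisons vip in the olfactory bulbs (red, -3.03) was called, and "few reads" stands where either species had 3 reads or fewer.

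The other species differences did not pass. The one with the next lowest unadjusted p was brain stem tac1, at a log2 difference of -0.92 ± 0.34 (adjusted p = 0.237), and the 5 fish of each species overlapped. The part differences themselves were compared between species in 15 pairs of parts for each gene, and none of the 90 contrasts passed (edgeR's quasi-likelihood test, stage-wise adjusted), with 8 at an unadjusted p under 0.05. The joint test over these contrasts passed for 0.402% of all genes and for none of the 6. Of the 36 contrasts of a part with the average of the others, none passed either, with 2 at an unadjusted p under 0.05. The cerebellum held no vip read in either species, so the vip contrasts that take it in could not decide. This holds for all vip contrasts with the average and for the vip pairs with the cerebellum. With the cerebellum left out, none of 30 contrasts passed and 4 had an unadjusted p under 0.05. The lowest was for cck in the olfactory bulbs (1.34, unadjusted p = 0.00146, adjusted p = 0.163). With the cerebellum, which had few or no cck reads, kept in the average, the cck bulb difference was 1.88 (adjusted p = 0.196). In that form it was called, greater in O. nasuta, with DESeq2's test (1.75, adjusted p = 0.0414) and without a filter (1.92, adjusted p = 3.3e-05). It was also called without the 2 bulb libraries lacking gnrh3 (2.08, adjusted p = 0.0165) and without these and O. ventralis fish 2 (1.89, adjusted p = 0.0124). A test that does not pass does not show that the species have the same pattern.

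**Figure D5:**
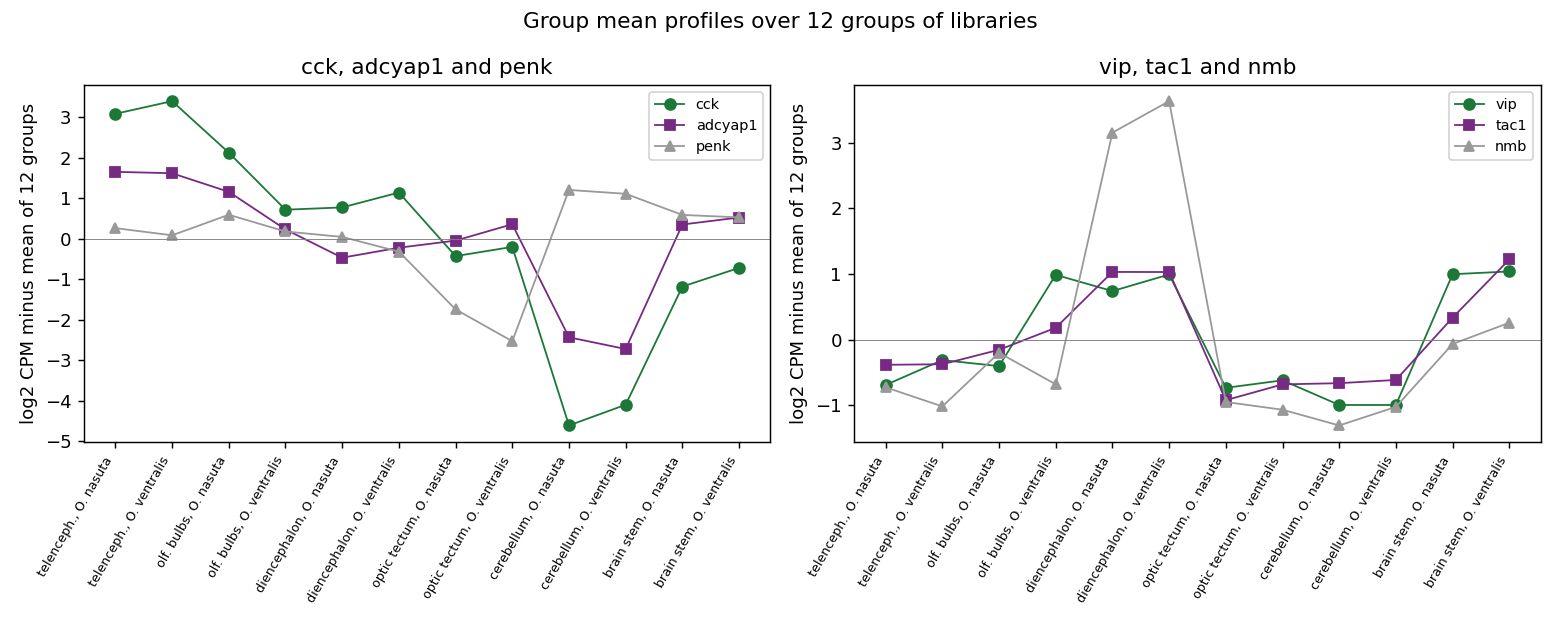
Group mean of log2 CPM of each peptide gene, minus its mean over the 12 groups of species and part, with cck, adcyap1 and penk on the left and vip, tac1 and nmb on the right. Cck and adcyap1 run together (r = 0.90), with their lowest points in the cerebellum, where penk has its highest.

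Over the 12 group means of log2 CPM, cck and adcyap1 ran close to each other (r = 0.90), as did vip and tac1 (0.89) and tac1 and nmb (0.80). The correlations of penk with the others lay between -0.30 (adcyap1) and 0.24 (tac1). The named genes with the profile most like cck were dusp4 (0.99), a phosphatase of MAP kinases, cdh22, tmem108, the cannabinoid receptor cnr1 and gucy1a2. For adcyap1 they were cdk14 (0.97), pik3cd, st3gal2, ankfn1 and ptprm, and for nmb gsx1 (0.97), maneal, stx3, rd3l and filip1. For vip they were gal (0.94), nbeal2, map1b, me2 and samd4a, for tac1 six6 (0.92), tead3, the signalling protein shh, vip and tpbg, and for penk mrps23 (0.90), rab41, psat1, gga3 and ube2m. These correlations share libraries, are over 12 points, and were computed as a description.

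Of the receptors that bind these peptides, 8 were in the tables and 3 passed the filter: tacr2, a receptor of tachykinins such as those from tac1, oprd1, the delta opioid receptor that binds enkephalins, and nmbr, the receptor of neuromedin B. The delta receptor was higher in the telencephalon of both species (9.43 CPM in O. nasuta, adjusted p = 0.0011, and 13.1 CPM in O. ventralis, against at most 8.95 CPM in any other part), the part with neither the highest nor the lowest penk. Nmbr was lower in the diencephalon, the part with the highest nmb (O. nasuta -1.49 ± 0.45, adjusted p = 0.0149, O. ventralis -2.30 ± 0.49, adjusted p = 0.000184, with 6.53% and 8.11% of all genes lower). It averaged 5.39 CPM there in O. nasuta, against 22.9 CPM in the olfactory bulbs, and 3.29 CPM in O. ventralis, against 35.4 CPM. That O. ventralis bulb mean takes in 87.2 CPM in fish 1, whose bulbs held no gnrh3 read, against 14.6 to 30.8 CPM in the other fish. Bulb tacr2 averaged 38.1 CPM (O. nasuta) and 33.2 CPM (O. ventralis). In the bulbs all 3 receptors were called higher in O. nasuta and 2 in O. ventralis, where 13.5% and 15.2% of all genes were. In the telencephalon 2 were called higher in O. nasuta and all 3 in O. ventralis, against 15.8% and 16% of all genes. In the cerebellum 2 of the 3 receptors were lower in O. nasuta and all 3 in O. ventralis, where 19.9% (O. nasuta) and 21.8% (O. ventralis) of all genes were lower, and none was higher.

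Genes on a list of other neuropeptide precursors numbered 22 in the tables, of which 13 passed the filter. That list names cbln1, also on the cerebellum marker list, and scg2 and vgf, also on the dense-core vesicle list. In the cerebellum 7 of the 13 were lower in each species, cbln1 among them, beside those 19.9% and 21.8% of all genes, and none was higher. In the olfactory bulbs 7 were higher in O. nasuta and 10 in O. ventralis (all genes 13.5% and 15.2%), among them gnrh3 (232 CPM in O. nasuta, 450 CPM in O. ventralis) and npff, which gives neuropeptide FF (455 CPM in O. nasuta, 676 CPM in O. ventralis). In the brain stem 8 were higher in O. nasuta and 5 in O. ventralis (all genes 13.9% and 12.7%), among them oxt and rln3, the relaxin-3 precursor of hindbrain neurons (23.8 CPM in O. nasuta, 19.98 CPM in O. ventralis, and at most 4.67 CPM in any other part). Of the 3 relatives of the 6 genes in the tables, pomc alone passed the filter, and it was higher in the diencephalon (5.54 ± 9.79 CPM in O. nasuta, 32.5 ± 28.8 CPM in O. ventralis), the part whose samples held the pituitary.

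Genes of peptide processing and release were measured more widely. Of 9 tested processing genes, 3 were higher and 2 lower in the cerebellum of O. nasuta, and 3 higher and 3 lower in that of O. ventralis, where 17.3% and 19.2% of all genes were higher and 19.9% and 21.8% lower. The prohormone convertase pcsk1 (O. nasuta -1.66, O. ventralis -2.44) and the amidating enzyme pam (O. nasuta -0.92, O. ventralis -1.06) were lower there. Of 12 tested genes on the dense-core vesicle list, 4 were higher and 4 lower in the O. nasuta cerebellum, and 2 higher and 6 lower in that of O. ventralis, with the granin chga among the lower ones (O. nasuta -2.61, O. ventralis -2.49). In the telencephalon 4 of the 9 processing genes were higher and 1 lower in each species, against 15.8% and 16% of all genes higher and 13.1% and 12.2% lower there. The vesicular glutamate transporter slc17a6 was lower in the cerebellum (O. nasuta -3.45, O. ventralis -4.82), the part in which cck and vip were at or near 0 and penk was highest.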

How the data were processed

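The deposited files hold raw counts per gene, 1 file for each of 60 libraries. According to the methods, the authors made 3′ tag (QuantSeq) libraries, trimmed the reads, aligned them with STAR 2.5.2b to the genome of Oreochromis niloticus, a related cichlid, and counted reads per gene with HTSeq 0.6.1p1 at a minimum mapping quality of 10. Mapping to another species can lose reads unequally between genes and between the 2 species. The 5 rows of unassigned reads were left out (no feature 11.5 to 15.5% of reads, not uniquely aligned 15.3 to 26.2%, ambiguous 0.229 to 0.342%), and 0 columns lacked a sample.

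Genes with more than 15 CPM in 4 or more libraries entered the tests (R 4.3.3, edgeR 4.0.16, limma 3.58.1) on the deposited counts with TMM scaling and edgeR's quasi-likelihood test, robust and in its older form. The fit held 1 mean per part and species and a term for each fish. Species within a part were compared without fish terms, since fish are nested in species. Part contrasts and the species contrasts of pairs of parts were adjusted stage-wise (Benjamini-Hochberg over genes on a joint test, then Holm within a gene). Benjamini-Hochberg over genes within each contrast was used for pairs of parts, species within a part, and species contrasts of a part with the average. The threshold was 0.05. The Holm step was the plain one. Standard errors were the log2 fold change over the square root of F. They and the fold changes include the count added before logs, so folds against groups without reads are given as bounds. The bound is the mean of the other part over a floor of 3 counts in the group without reads. It covers counting error in the group without reads only, not the error of the other part's mean.

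Numbers in the labels pair the parts of a fish. Residuals of the same fish in different parts correlated by 0.0534 on average (145 pairs), against -0.0134 between fish of a species (580 pairs). Similar genes were the 5 named genes with the highest Pearson correlation over the 12 group means of log2 CPM (prior count 2). Of each gene list, up to 4 members called in the same part in both species were eligible for naming, those with the largest fold change; levels of gal, oxt, otp, zic1 and nmbr beyond that were given after their values were seen. The 6 genes and the lists were chosen with earlier results of these data known. Alternatives were DESeq2 1.42.0 size factors and test, other filters, the current edgeR fit, no fish term, other sets of libraries, thinning to the lowest total, CPM without TMM and leaving out each fish. The average without the cerebellum and the fits without 2 olfactory bulb libraries were added after seeing the data. The p-values measure the spread between fish kept in 1 aquarium per species.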

Additional observations from a re-analysis of the deposited data

Results flagged for a closer look

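Within each gene, part and species, the highest and the lowest fish were set against the others in 46 groups with a median of at least 5 reads, by Dixon's criterion, under which chance flags about 1 in 20 groups. In 4 groups the highest fish stood apart. Olfactory bulb adcyap1 was 365 CPM (313 reads) in O. nasuta fish 3, against 125 to 151 CPM in the other 3 O. nasuta. Olfactory bulb tac1 was 16.7 CPM (17 reads) in O. nasuta fish 1, against 7.999 to 8.39 CPM in the others. Diencephalic penk was 63.5 CPM (26 reads) in O. ventralis fish 2, against 35.5 to 43.6 CPM in the others. Diencephalic nmb was 168 CPM (87 reads) in O. nasuta fish 5, against 49.0 to 80.4 CPM in the others, in the library with the lowest pituitary marker sum of its species.

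The bulbs of O. nasuta fish 5, left out for its 25798 counts, held reads of 3 of the 6 genes above the limit that a count of 0 allows: 4 reads of adcyap1, 6 of penk and 7 of cck. Over the total of that library these are 155, 233 and 271 CPM, with adcyap1 inside the range of the other O. nasuta bulbs, penk above it and cck just below it.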

How the results depend on the processing

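Calls of a part against the average numbered 33, and 31 with DESeq2's test (3 lost, 1 gained), 34 without the replicate block, 34 with DESeq2 size factors, 40 without a filter and 24 with all libraries thinned to the lowest total, where 4 calls of vip, 4 of tac1 and 1 of nmb were lost. Leaving out 1 fish at a time gave 30 to 34 calls, and for the 106 pairs of parts 101 to 110. Without the replicate block 107 pairs were called. Contrasts between species of the difference of a pair of parts numbered 0 in every setting but 1: without a filter 4 were called, all of them cck in the olfactory bulbs set against another part. Species within a part gave 2 calls without the 2 libraries lacking gnrh3 reads, 2 without these and O. ventralis fish 2, and 0 after thinning, where vip in the olfactory bulbs was -3.15 (adjusted p = 0.145). Leaving out 1 fish gave 1 to 2 calls, the added one being cck in the olfactory bulbs without O. ventralis fish 1. The causes were not tested. One value changed sign, cck in the O. nasuta diencephalon against an average without the cerebellum (-0.0926). Over 59 results and all settings, 1115 of 1212 values kept direction and side of the threshold, 68 lost a call and 28 gained one. Thinning left 18760 calls over all genes, against 35304.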
